A study of Caenorhabditis elegans with 2 samples.

Results

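ZTF-3 is a zinc finger protein of Caenorhabditis elegans, and its binding was mapped by ChIP-seq, an assay that recovers the DNA attached to a protein with an antibody. The core regions were the peaks of the thresholded list that ranked high in each of the 2 biological replicates, labelled 4 and 5. A peak was taken as core when its summit, the position of highest signal, lay inside one of the 534 regions of highest signal in the replicate 4 list and inside one of the 534 of highest signal in the replicate 5 list. This held for 259 of the 534 thresholded peaks, and the other 275 are called the remaining peaks. Because the members were chosen by their signal in both replicates, their signal, rank and significance are given as description and were not tested. Position in the genome, neighbouring genes and base composition played no part in the choice and were compared between core and remaining peaks.

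Both samples came from strain OP614, which carries the mutation unc-119(tm4063) and the integrated transgene wgIs614. The transgene holds ztf-3::TY1::EGFP::3xFLAG, so that ZTF-3 bears a C-terminal green fluorescent protein tag, which the antibody recognised, and unc-119(+), a wild-type copy of the mutated gene. Whole worms of mixed sex were collected as young adults at 58 h after synchronisation by bleaching and starvation as L1 larvae, so the signal mixes all tissues. There is 1 group, no untagged strain was analysed here, and 1 control entered the deposited lists. Read counts are not part of the lists, which leaves the sequencing depth unknown.

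A ChIP-seq peak marks DNA near which the tagged protein was recovered, whether it touched the DNA itself or another protein bound there. In worm surveys, many unrelated factors have been recovered at a shared set of highly occupied regions, often beside broadly expressed genes. Transfer RNA (tRNA) genes, small nucleolar RNA (snoRNA) genes and small nuclear RNA (snRNA) genes are short and strongly transcribed, and tRNA genes are read by RNA polymerase III from promoter elements inside the gene. Whether the core regions belong to these highly occupied sites was not tested.

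Shown here are the windows at 12 of the best placed core summits, the one at ppfr-1 left out. They let a reader see 2 kinds of sequence that are counted below, long GT/CA repeats and short words, which are AGAGAC and the overlapping pair of ACGCAG with GACGCA. Of the 12 windows, 6 hold neither. Each window is 101 bases centred on the summit, from the RefSeq WBcel235 assembly, which has the ce11 sequence. Capitals mark perfect dinucleotide runs of at least 20 bp and those 3 words on either strand. The names give the gene with the nearest transcription start site (TSS). Entries named as a second summit share a replicate region with the entry before them.
spat-3, chrX:4606468-4606568, plus strand: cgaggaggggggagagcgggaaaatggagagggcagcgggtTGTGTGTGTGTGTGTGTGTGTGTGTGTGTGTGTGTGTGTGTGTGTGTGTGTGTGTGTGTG
spat-3 second summit, chrX:4606704-4606804, plus strand: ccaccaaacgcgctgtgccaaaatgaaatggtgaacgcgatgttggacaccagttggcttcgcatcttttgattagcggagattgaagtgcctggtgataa
mvk-1, chrIII:6133567-6133667, plus strand: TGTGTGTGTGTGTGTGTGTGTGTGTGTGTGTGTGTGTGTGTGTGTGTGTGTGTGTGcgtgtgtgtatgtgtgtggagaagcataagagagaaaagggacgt
sto-4, chrX:11644058-11644158, plus strand: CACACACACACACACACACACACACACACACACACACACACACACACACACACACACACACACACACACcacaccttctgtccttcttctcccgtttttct
tasp-1, chrIII:10759201-10759301, plus strand: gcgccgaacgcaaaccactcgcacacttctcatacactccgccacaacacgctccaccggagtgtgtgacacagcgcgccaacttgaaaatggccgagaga
rpl-3, chrIII:3867531-3867631, plus strand: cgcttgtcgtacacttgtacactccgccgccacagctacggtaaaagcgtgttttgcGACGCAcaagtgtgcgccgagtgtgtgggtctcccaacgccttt
W02H3.3, chrX:11094140-11094240, plus strand: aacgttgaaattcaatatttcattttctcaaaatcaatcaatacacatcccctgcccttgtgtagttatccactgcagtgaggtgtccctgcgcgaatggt
Y17G9B.5, chrIV:4750011-4750111, plus strand: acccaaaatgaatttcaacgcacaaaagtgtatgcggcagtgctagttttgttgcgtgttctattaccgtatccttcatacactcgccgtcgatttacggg
cmd-1, chrV:1151438-1151538, plus strand: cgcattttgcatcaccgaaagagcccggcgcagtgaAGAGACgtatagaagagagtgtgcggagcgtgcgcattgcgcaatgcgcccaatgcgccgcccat
tag-340, chrIII:4899864-4899964, plus strand: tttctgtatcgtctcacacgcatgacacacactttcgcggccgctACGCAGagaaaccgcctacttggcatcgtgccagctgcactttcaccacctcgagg
ins-13, chrII:5543677-5543777, plus strand: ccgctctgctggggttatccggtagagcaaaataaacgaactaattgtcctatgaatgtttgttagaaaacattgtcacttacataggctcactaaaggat
ins-13 second summit, chrII:5543878-5543978, plus strand: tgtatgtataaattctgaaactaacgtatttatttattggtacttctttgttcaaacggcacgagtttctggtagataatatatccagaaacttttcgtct

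The repeat filled more than 50 bases of the windows at spat-3, mvk-1 and sto-4, and no window from tasp-1 onward held such a run. One of the 3 words stood in the windows at rpl-3, cmd-1 and tag-340. The windows at the second spat-3 summit, tasp-1, W02H3.3, Y17G9B.5 and ins-13 held none of the marked features.

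The core peak with the highest signal was intronic in ppfr-1, which encodes a protein phosphatase 4 subunit, and lay beside the RNA genes F16A11.7 and anr-20. Replicate 4 listed it at 1332, replicate 5 at 532 and the pooled list at 1860, first in each. The replicate lists are on different scales, so their values are set side by side and ranks are used between them. The first of the 2 summits upstream of the RING finger gene spat-3, beside T13H2.7 and T13H2.9, had a pooled signal of 996, and the second 397. They share 1 region in each replicate, with a signal of 744 (rank 2) in replicate 4 and 256 (rank 3) in replicate 5. The mevalonate kinase gene mvk-1 had a signal of 344 in replicate 4, 117 in replicate 5 and 460 when pooled. For sto-4, a stomatin gene with Y71H9A.9 nearby, these values were 325, 103 and 427. The ppfr-1 summit lay within 200 bp of a GT/CA run of 189 bp, and the first spat-3 summit, mvk-1 and sto-4 at the repeats shown above. The second spat-3 summit was within 200 bp of the same run as the first, but its own window holds none of it.

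Several of the next members lay between divergent genes. The peak between tasp-1, a threonine aspartase gene, and K01G5.10 had a signal of 233 (rank 7) in replicate 4 and 93.6 (rank 6) in replicate 5. The peak 273 bp before rpl-3, a protein of the large ribosomal subunit, had 250 (rank 5) and 84.6 (rank 8). The peak shared by rpl-20, another ribosomal protein, and Y17G9B.5 ranked 10 and 16. Further divergent pairs with a shared core summit were nhl-2 with tag-340 (ranks 13 and 18, beside F26F4.14), F44E5.4 with F44E5.5, which both encode HSP70 family chaperones (12 and 26), cls-2 with R107.5 (27 and 19), rpl-15 with K11H12.8 (33 and 13) and iff-2 with F54C9.14 (38 and 33). In each of these pairs the replicates placed the peak within their 50 strongest regions.

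Of the 30 best placed core peaks, 25 were intergenic, 5 intronic and 20 inside a promoter window, meaning from 1000 bp before to 200 bp after the TSS of a protein-coding gene. Those before single genes included cdc-48.1, an AAA ATPase (ranks 22 and 21), egg-5, beside sls-2.4 and R12E2.18 (8 and 25), and ftt-2, a 14-3-3 protein (25 and 7), beside F52D10.7, F52D10.9, F52D10.11 and F52D10.12. They also included cox-5A, a cytochrome c oxidase subunit (17 and 30), nspc-17 (30 and 20), the histone acetyltransferase gene cbp-1, near R10E11.12 (34 and 14), hsp-1, a constitutive HSP70 chaperone, beside F26D10.23 (15 and 37), and ift-43, whose window held a summit nearest mdt-26 (39 and 15). Others were far from any TSS. The peak nearest cmd-1, the calmodulin gene, was 4783 bp from it and beside linc-128 (6 and 17), and the peak nearest W02H3.3 was 3996 bp away (9 and 10). The peaks nearest cest-16 (19 and 12), sipa-1 (14 and 32) and pqn-41 (31 and 36) also lay outside promoter windows, as did 2 summits nearest ins-13 and 2 nearest xol-1, which lay beside small RNA genes described below.

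**Figure D1:**
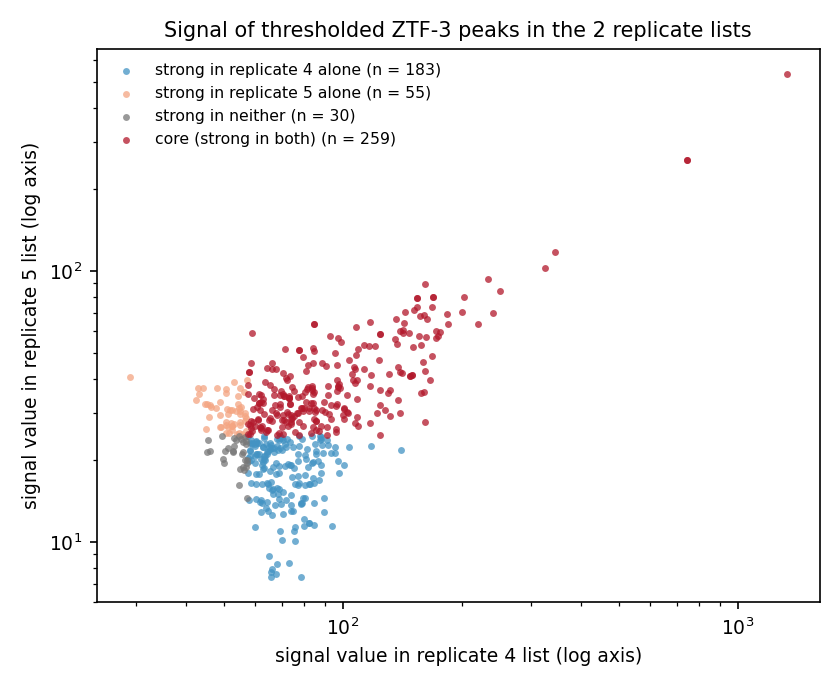
Signal value of each thresholded peak in the replicate 4 list (x axis, log scale, deposited units) and in the replicate 5 list (y axis, log scale, deposited units), 1 point per peak with a region in both lists and coloured by where it was among the 534 strongest. Core peaks run from 57.4 to 1332 in replicate 4 and from 24.8 to 532 in replicate 5, and peaks strong in replicate 4 alone reach at most 24.7 in replicate 5.

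Across all 259 core peaks, the lowest, median and highest signal were 57.4, 85.6 and 1332 in replicate 4. They were 24.8, 35.2 and 532 in replicate 5, and 75.1, 117 and 1860 in the pooled list. The median rank was 148 in each replicate. The plot of replicate signals shows a long tail of a few very strong members and a dense group near the limit. All of the 50 strongest pooled peaks were core, as were 98 of the first 100 and 173 of the first 200, while the lowest core peak had pooled rank 525. The highest −log10 q of the list, 2.48, was reached by 143 core and 10 remaining peaks. These counts follow largely from the way the members were chosen.

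The remaining peaks split unevenly between the replicates. Strong support in replicate 4 alone was seen for 190 peaks, in replicate 5 alone for 55 and in neither for 30. The 190 had a median rank of 299.5 in replicate 4, and the 183 of them with a region in replicate 5 had a median rank of 1431 there. The 55 had median ranks of 263 in replicate 5 and 724 in replicate 4. The 2 replicates' summits lay a median of 42 bp apart at core peaks and 54 bp at peaks strong in replicate 4 alone. The medians were 33 bp at those strong in replicate 5 alone and 19 bp at the 30 strong in neither.

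The limit ran through a continuous range of values. Just inside it, with the larger of the 2 ranks between 522 and 532, were peaks nearest ogt-1, ins-39, T13C5.6, C34C12.8 and vhp-1. The ins-39 peak, upstream of an insulin-like gene, ranked 59 in replicate 4 with a signal of 124 and 524 in replicate 5 with 24.8. Just outside, with the larger rank between 535 and 543, were peaks nearest K01F9.2, F44E5.4, pcn-1, ppat-1 and C06B3.6. This F44E5.4 peak, 2349 bp downstream of the TSS, is separate from the core peak between F44E5.4 and F44E5.5. The pcn-1 peak, upstream of the sliding clamp gene of DNA replication, ranked 174 in replicate 4 with 83.3 and 541 in replicate 5 with 24.6. The ins-39 and pcn-1 peaks lie on either side of the limit with nearly equal signal in replicate 5.

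Some core entries describe the same place. Another thresholded summit lay within 1000 bp of 34 core and 2 remaining peaks, and keeping 1 peak per 1000 bp left 243 core and 273 remaining peaks. A pair of summits in 1 strong region enters the core together, so this excess is partly built into the choice. A width other than the common 444 bp was listed for 57 core and 3 remaining peaks. Each comparison below counts peaks, which are not replicates of a condition, and neighbouring peaks are not independent, so its p-value and interval cover counting error only.

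No location class differed between core and remaining peaks past the threshold, and intergenic space held most summits of both. Summits were intergenic at 163 of 259 core peaks (62.9%, 95% Clopper-Pearson interval 56.7 to 68.8%) and at 161 of 275 remaining peaks (58.5%), odds ratio 1.20 (95% interval 0.836 to 1.73, two-sided Fisher's exact test with adjustment, p = 0.544). Introns held 67 core (25.9%) and 69 remaining summits (25.1%, odds ratio 1.04, 0.692 to 1.57). Promoter windows held 126 core (48.6%) and 124 remaining summits (45.1%, odds ratio 1.15, 0.809 to 1.65). Coding exons held 20 and 30 summits (odds ratio 0.683, 0.357 to 1.28), and exonic untranslated regions 9 and 15 (0.624, 0.236 to 1.56). One alternative matched peaks by a replicate summit within 100 bp of the peak summit, in place of a summit inside the region. With it, coding exons had an odds ratio of 0.415 and passed (Fisher's exact test with adjustment, p = 0.0495). None of the 5 classes passed the threshold of 0.05, with adjusted p between 0.544 and 0.843, and the intervals leave room for moderate differences either way. Among the 29466 other candidate regions of the pooled list, 30.1% of summits were intergenic, 35.4% lay in coding exons and 28.1% in promoter windows.

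**Figure D2:**
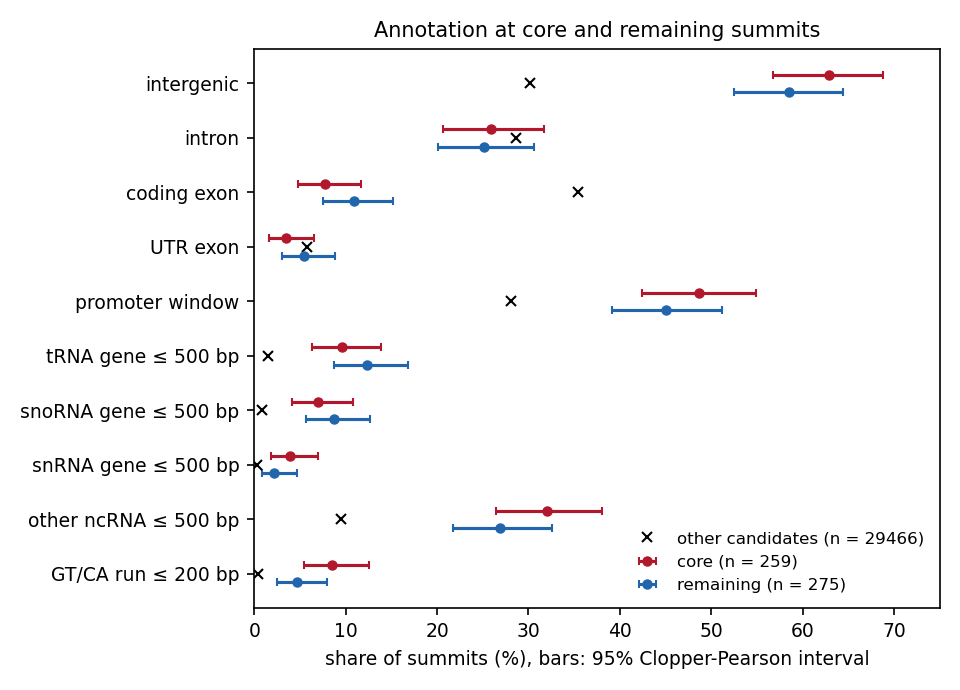
Share of summits (x axis, percent) in each location class, near each kind of RNA gene and near GT/CA runs (y axis), for core peaks, remaining peaks and other candidate regions, with 95% Clopper-Pearson intervals for the first 2. The intervals of core and remaining peaks overlap in every class drawn, for example 62.9 and 58.5% for intergenic summits.

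Within the intergenic core, 62 of 163 summits lay between divergent genes, 79 between genes in tandem and 22 between convergent genes, against 63, 82 and 16 of 161 remaining intergenic summits. First introns held 31 of 67 intronic core summits and 35 of 69 remaining ones. The median distance from a core summit to the nearest protein-coding TSS was 886 bp, and 49 core summits (18.9%) lay within 200 bp of one, against 59 remaining summits (21.5%). Promoter windows of 2 or more genes were reached by 33 core and 33 remaining summits. At 71 core peaks (27.4%) and 84 remaining peaks (30.5%) there was neither a promoter window nor a counted RNA gene within 500 bp. The RNA genes counted there were tRNA, snoRNA, snRNA, miRNA and those annotated as ncRNA. Genes for piRNA, lincRNA and antisense RNA were not counted, so some of these peaks may lie beside one. The 6 chromosomes held between 30 (IV) and 61 (X) core peaks. No chromosome passed the threshold, the widest difference being on V with 32 core and 46 remaining peaks (odds ratio 0.702, 95% interval 0.416 to 1.17, Fisher's exact test with adjustment, p = 0.837).

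Core promoter summits reached 152 of the 309 protein-coding genes that had any thresholded promoter summit (49.2%), and the gene groups are read against that share. The lists were chosen with earlier results of these data known and are given as counts without a test. Ribosomal protein genes had a core summit at 7 of 13, namely rpl-3 (pooled signal 333), rpl-20 (272), rpl-15 (231), rpl-35 (204), rps-1, rps-19 and rpl-12. The other 6, rpl-11.2, rpl-24.2, rps-12, rps-15, rps-20 and rps-26, had pooled signals from 74.9 to 96.6. Translation factors had core summits at 3 of 6, which were iff-2 (207), an eIF5A protein, ifet-1 (170) and the elongation factor eef-2 (107). Respiratory chain genes also had 3 of 6, namely cox-5A (224), cox-5B (134) and nduf-2.2 (87.5).

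Heat shock genes, listed by the names hsp and dnj and so without F44E5.4 and F44E5.5 above (pooled signal 250), had a core summit at 4 of 6. These were hsp-1 (pooled signal 228), hsp-90 (154), hsp-3 (151), the HSP70 chaperone of the endoplasmic reticulum, and dnj-13 (149), a DnaJ cochaperone. The promoter peaks of hsp-60, the mitochondrial chaperonin, and hsp-110 were strong in fewer than both replicates, with pooled signals of 144 and 93.9. Chromatin regulators had 4 of 9, namely cbp-1 (233), set-16 (199), a histone methyltransferase, lin-9 (110) and lin-54 (102.5). The pooled signal of lin-54 equals that of rpl-12, and ifet-1 and rps-1 both have 170, so genes of different lists may share a summit. The genes lin-9 and lin-54 encode members of the DREAM complex, as do lin-35 (80.96), efl-1 (81.8) and lin-53 (101.9), whose promoter summits were at remaining peaks. The other 2 chromatin regulators at remaining peaks were chd-7 (81.8) and swsn-7 (80.6). Cell cycle genes had 1 of 4 (cdc-48.1, 230) and F-box genes 1 of 4 (fbxb-58, 172). Chaperonins had 1 of 2 (cct-8, 160), as did 14-3-3 and calmodulin genes (ftt-2, 245) and the list of germline markers (puf-9, 171). Insulin-like and neuropeptide genes (ins-39, 159) and mitochondrial ribosomal proteins (mrpl-23, 106) each had 1 of 1. The mrpl-23 peak also lay at the snoRNA gene T08B2.13.

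Tissue and receptor lists reached few genes. Tissue names, also that of the germline list, are list labels, and whether each gene is expressed there was not checked. Chemoreceptors had 2 of 3 (sre-23, 134.5, and sri-5, 92.7), and the list of pharynx markers 2 of 3 (pqn-71, 98.3, and pqn-27, 87.3). The sre-23 peak also lay at the snoRNA gene ZK265.10. The pqn-71 summit lay inside the tRNA-Lys gene T23F1.t1. No core promoter summit was found for the 2 nuclear hormone receptors with a thresholded one, nor for the single genes with one among proteasome, histone, splicing factor, ztf zinc finger, bHLH, muscle and hypodermis lists. Collagens, homeobox factors, vacuolar ATPase genes, neuronal markers and intestine markers had no thresholded promoter summit. The worms were not dissected, so the tissue in which any of these regions was bound is unknown.

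Genes for small RNAs (tRNA, snoRNA, snRNA or miRNA) lay within 500 bp of 55 core peaks (21.2%) and 66 remaining peaks (24.0%). A tRNA gene lay within 500 bp of 25 core peaks (9.65%, 95% Clopper-Pearson interval 6.34 to 13.9%) and of 34 remaining peaks (12.4%), odds ratio 0.757 (0.419 to 1.35, Fisher's exact test with adjustment, p = 0.673). Of the other candidate regions 1.52% had one. snoRNA genes stood at 18 core and 24 remaining peaks (odds ratio 0.781, 0.389 to 1.55), snRNA genes at 10 and 6 (1.80, 0.582 to 6.11), miRNA genes at 2 and 4, piRNA genes at 6 and 6 and other non-coding RNA genes at 83 and 74 (1.28, 0.867 to 1.89). None of these 6 classes passed the threshold.

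Most tRNA members of the core ranked low within it. The 25 core peaks at tRNA genes had a median of 317 for the larger of their 2 ranks, against 224 over all core peaks. Apart from 2 summits that share 1 strong region beside the tRNA-Arg gene C18A11.t2, with rank 32 in replicate 4 and 11 in replicate 5, none ranked better than 236 in both. Requiring a place among the 267 strongest regions of each replicate left 156 core peaks, of which 5 were at tRNA genes, against 54 of the other 378 thresholded peaks. The odds ratio was then 0.199 (Fisher's exact test with adjustment, p = 6.3e-04), which passed the threshold that the wider choice did not. In the 103 core peaks left out by that step, 20 (19.4%) were at tRNA genes. Both C18A11.t2 summits are among the 5. The adjustment covers the RNA gene classes but not the alternatives tried, and no other alternative passed for tRNA genes. With both replicates in use, their odds ratios ran from 0.518 (peaks with the higher pooled signal) to 0.968 (reciprocal overlap of 50%). With the strongest regions of replicate 4 alone, 52 of 449 peaks were at tRNA genes, against 7 of the other 85. That odds ratio was 1.46, in the other direction, and did not pass the threshold (Fisher's exact test with adjustment, p = 0.841). Why the direction differed was not tested.

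**Figure D3:**
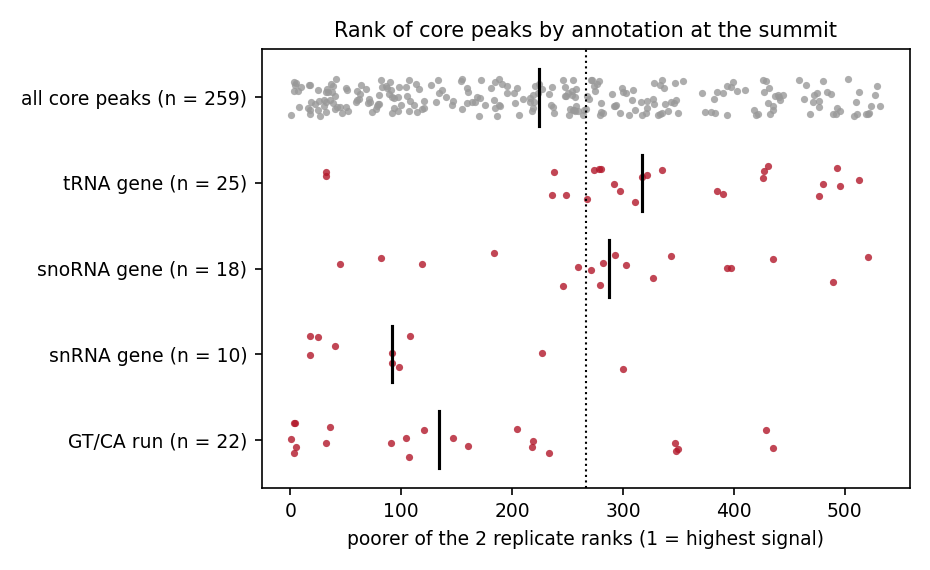
Larger of the 2 replicate ranks (x axis, rank 1 is the highest signal) of all core peaks and of those at tRNA, snoRNA and snRNA genes and at GT/CA runs (y axis), 1 point per peak with vertical scatter added for visibility. Black bars are medians, from 92 for snRNA genes to 317 for tRNA genes, and the dotted line stands at rank 267.

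The tRNA genes at core peaks numbered 28, because some peaks lay beside a pair, and their isotypes were mixed. RefSeq lists 5 of them as tRNA-Lys, 4 as tRNA-Asp and 3 as tRNA-Pro, with 1 or 2 each of tRNA-Ala, tRNA-Arg, tRNA-Asn, tRNA-Cys, tRNA-Gln, tRNA-Glu, tRNA-Ile, tRNA-Leu, tRNA-Ser, tRNA-Thr and tRNA-Tyr. Remaining peaks held more tRNA genes, 39, and some isotypes were seen on 1 side alone. At remaining peaks alone were tRNA-Gly and tRNA-Val (4 genes each), tRNA-His, tRNA-Phe and tRNA-Trp (1 each). The tRNA-Gly genes T10B10.t1 and T10B10.t2 share a peak, as do the tRNA-Val genes F59C12.t1 and F59C12.t3. At core peaks alone were tRNA-Asn (1), tRNA-Cys and tRNA-Ile (2 each). These counts are small and were not tested. The summit lay inside the tRNA gene at 13 of the 25 core tRNA peaks and at 14 of the 34 remaining ones. On X, where the annotation places 276 of 612 tRNA genes, were 14 of the 25 and 22 of the 34. The tRNA-Ile gene C42D8.t1, for instance, held a summit with rank 135 in replicate 4 and 236 in replicate 5. The sup-7 gene, a tRNA-Trp, was at a peak that ranked 336 in replicate 4 and 3471 in replicate 5, outside the core.

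Core peaks at snRNA genes had a median larger rank of 92, in which 3 double summits repeat their ranks or nearly so. Of the 10, 9 were among the 156 peaks of the narrower choice, against 7 of the other 378, which did not pass the threshold (odds ratio 3.25, Fisher's exact test with adjustment, p = 0.0651). They included the spliced leader genes sls-2.1, sls-2.2 with sls-2.3, sls-2.4 and sls-2.8. These encode the SL2 RNAs that are joined to messages from downstream genes of operons. Genes named sls-2 were at 5 core peaks (1.93%) and also at 2 remaining peaks (0.727%). The summit at sls-2.2 and sls-2.3, also beside C17C3.22 and C17C3.23 and nearest ins-13, ranked 18 in replicate 4 and 9 in replicate 5, and a second summit shared that region. The snRNA gene sup-6 and the snRNA gene R07E5.16 each had 2 core summits as well, so the 10 peaks describe 7 places. At the narrower choice 6 of the 156 and 36 of the 378 were at snoRNA genes, which did not pass either (odds ratio 0.380, Fisher's exact test with adjustment, p = 0.0651). The core snoRNA peaks had a median larger rank of 287.5, and the best placed was at T03F7.8, with a larger rank of 45. The miRNA genes were cel-mir-229, at a peak in an intron whose nearest TSS was that of gcn-1 (pooled signal 153.5), and cel-mir-51 (82.7).

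Simple repeats of GT/CA were found at more core than remaining peaks, by a margin that did not pass the threshold. A perfect run of at least 20 bp lay within 200 bp of 22 core summits (8.49%, 95% Clopper-Pearson interval 5.40 to 12.6%) and of 13 remaining summits (4.73%), odds ratio 1.87 (0.878 to 4.14, Fisher's exact test with adjustment, p = 0.25). The longest run at each core peak had a median of 43 bp and reached 199 bp, and 12 were of at least 40 bp. At remaining peaks the median was 32 bp, the longest 179 bp, and 5 were of at least 40 bp. Among the 156 peaks of the narrower choice, 17 were at such a run, against 18 of the other 378 (odds ratio 2.45, Fisher's exact test with adjustment, p = 0.0369). Both spat-3 summits, at the same run, are among the 17. No other alternative passed for GT/CA runs. Runs were examined because earlier results of these data had drawn attention to them, so this p-value is not independent support. The longest core run lay in an intron of ast-1, a gene for an ETS factor, at a larger rank of 219, and a run of 127 bp nearest Y55B1BR.8 was at 350. AG/CT runs were at 5 core and 2 remaining peaks and AT runs at none.

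**Figure D4:**
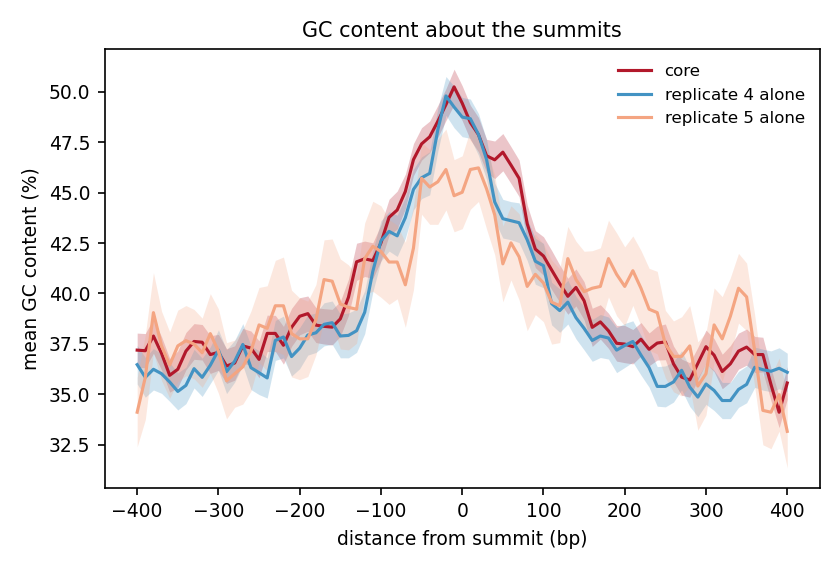
Mean GC content (y axis, percent) of 21 bp windows at steps of 10 bp from the summit (x axis, bp), for core peaks and for peaks strong in 1 replicate alone, with the standard error over peaks shaded. Core peaks reach 49.4% at the summit and 37.1 and 37.4% at 300 bp on either side.

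GC content rose toward the summit in core peaks and in peaks strong in 1 replicate alone, and the 30 strong in neither were not profiled. In core peaks the mean was 49.4% ± 0.86 (SE, n = 259 peaks) at the summit, 37.1% at 300 bp before it and 37.4% at 300 bp after it. In peaks strong in replicate 4 alone it was 48.8% ± 0.97 (SE, n = 190) and in those strong in replicate 5 alone 45.02% ± 1.81 (SE, n = 55). The median GC content of the 101 bp window was 49.5% in core, 47.5% in remaining and 40.6% in other candidate regions. A value above the median of all thresholded peaks was found at 133 core (51.4%) and 120 remaining peaks (43.6%), odds ratio 1.36 (0.956 to 1.94, Fisher's exact test with adjustment, p = 0.342). Among dinucleotides the smallest p was for AA/TT, which was above its median in 41.7% of core and 51.6% of remaining windows (odds ratio 0.670, 0.469 to 0.957, Fisher's exact test with adjustment, p = 0.265).

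None of the 2080 words of 6 bases differed between core and remaining windows past the threshold (0% of those tested, Fisher's exact test, lowest adjusted value p = 0.454). At an unadjusted p under 0.05 there were 123, of which 49 were more frequent in core and 74 in remaining windows. The most frequent in core relative to remaining windows by p was AGCGTG, in 25 core (9.65%) and 7 remaining windows (2.55%). It was followed by CGCGCA (33 and 15 windows), CGTCCC (10 and 1), CCACGC (23 and 8) and TACACA (28 and 12). Lower in core were TTCGAA (3 and 21), ATGGAG (6 and 26), ATGGAA (7 and 26), ACGGGC (2 and 16) and AATGGA (8 and 27). TTCGAA is part of the B box, an internal promoter element of tRNA genes, and 5 of its 24 windows were within 500 bp of one.

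The last-named word of 6 bases and both that begin with ATGGA share those 5 bases, and ATGGA was the one of 512 words of 5 bases that passed the threshold. It was found in 21 core (8.11%) and 57 remaining windows (20.7%), odds ratio 0.338 (Fisher's exact test with adjustment, p = 0.0215). This shorter word was one of the alternatives to the 6-base count, and it is named after its value was seen. It was less frequent in core windows in coding exons (4 of 20 against 16 of 30), in introns (4 of 67 against 13 of 69) and between genes (13 of 163 against 24 of 161). Outside coding exons it stood in 7.11% of core and 16.7% of remaining windows. At peaks near tRNA genes, which overlap these places, ATGGA was in 2 of 25 core and 10 of 34 remaining windows.

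**Figure D5:**
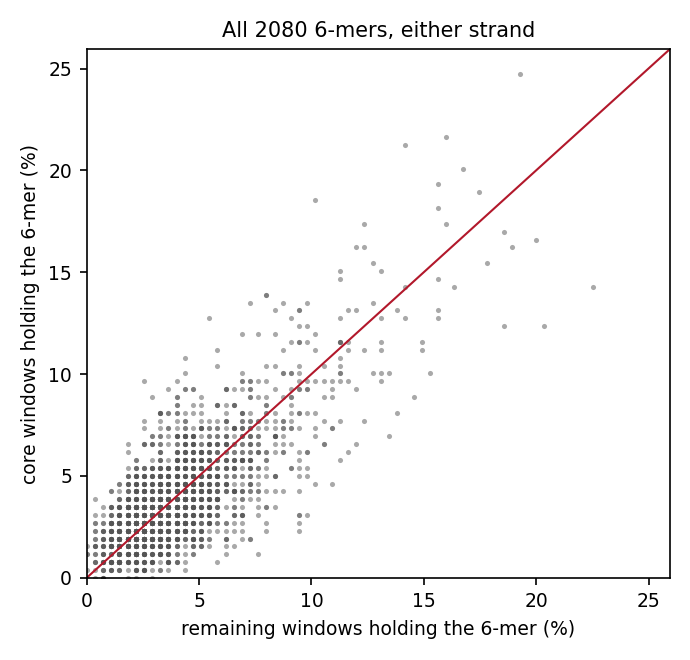
Share of remaining windows (x axis, percent) and of core windows (y axis, percent) that hold each of the 2080 words of 6 bases on either strand, 1 point per word, with the line of equal shares. No word differs past the threshold, and points lie on both sides of the line.

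Words named in the whole thresholded set, of which the core is a part, were also frequent in the core. Because of that choice, their frequency in core windows and at the summit is description only. AGAGAC was in 56 core (21.6%) and 44 remaining windows (16.0%), GAGAGA in 64 (24.7%) and 53 (19.3%), ACACAC in 55 (21.2%) and 39 (14.2%), ACGCAG in 39 and 36 and GACGCA in 34 and 32, none past the threshold. They were most frequent at the summit. In core peaks AGAGAC fell from 21.6% of windows at the summit to 9.65% in windows 300 bp before it and 4.25% 300 bp after it, and ACGCAG fell from 15.1 to 2.70 and 1.93%. At least one of the 3 words in capitals above was in 83 core (32.05%) and 71 remaining windows (25.8%). The longer word AGACGCAG, which joins ACGCAG and GACGCA, was in 23 core and 18 remaining windows. At core peaks near tRNA genes 2 of 25 windows held one of the 3 words, while over all core peaks 43 of 126 in promoter windows and 40 of 133 outside them did, counts that include the tRNA peaks.

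The central 51 bp of the window had a second exact copy in the genome at 4 core and 8 remaining peaks, 2 and 4 of them near tRNA genes, and how reads from such copies were placed is not given in the sources used here.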

How the data were processed

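ChIP-seq lists were analysed for 2 biological replicates of 1 group. Each replicate list and the pooled list hold 30000 candidate regions derived from alignments and 1 control, and the thresholded list of 534 was derived from them by the irreproducible discovery rate, per the file headers. The signal value of a region, its −log10 q and its summit offset in bp are the deposited values of the authors. Which aligner and peak caller made the lists is not given in the sources used here. All positions are 1-based on ce11, the build in the labels. The sequences shown come from core peaks not on the first chromosome.

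Members and lists were chosen with earlier results of these data known. Summits were placed on WBcel235, which is ce11, with Ensembl annotation release 115, and tRNA products were taken from RefSeq by coordinates (607 of 612 tRNA genes matched). Introns, exons and intergenic space were defined by protein-coding genes alone. Core and remaining peaks were compared by Fisher's exact test, two-sided, with Benjamini-Hochberg adjustment within each family at 0.05 (scipy 1.17.1, pandas 2.3.3, numpy 2.4.6, Python 3.11.15). Odds ratio intervals are exact conditional 95% intervals. The 6-base test was tested on simulated data. The lists hold no read counts, so depth is unknown and signal carries no error of its own.

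Named genes are those nearest the 30 core peaks with the best poorer rank, with RNA genes within 500 bp, up to 4 genes per list by pooled signal, the 5 peaks on each side of the limit and the 5 words of lowest p in each direction. Values for tRNA genes, runs and places outside this rule were chosen after they were seen. Alternatives changed the number of strongest regions, the match between lists, the promoter window, the RNA gene and run distances, the window and word length, and the comparison set, or left out a replicate. Of these, 2, which drop peaks near tRNA genes or at GT/CA runs, were added after seeing the data.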

Additional observations from a re-analysis of the deposited data

How the results depend on the processing

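Of 171 recomputed values, 146 kept their direction and their side of the threshold. Taking the 267 strongest regions of each replicate gave 156 core peaks, a tRNA odds ratio of 0.199 and a GT/CA odds ratio of 2.45, both past the threshold, and taking 1068 gave 393 core peaks. Using 1 replicate gave 314 to 449 core peaks, and odds ratios of 0.919 to 1.31 for intergenic summits, 0.835 to 1.28 for promoter windows, 0.597 to 1.46 for tRNA genes, 0.923 to 1.22 for introns, 0.959 to 1.17 for chromosome III and 0.904 to 1.24 for X. A promoter window of 500 bp gave 0.884. Words of 5 bases gave 1 past the threshold. Requiring replicate summits within 100 bp gave 0.846 for snRNA genes, 0.887 for chromosome III and 0.415 for coding exons (Fisher's exact test, adjusted p = 0.0495), and a reciprocal overlap of 50% also gave 0.887 for III. With 1068 regions snoRNA genes had 1.34, introns 0.995 and X 0.874. Against peaks strong in replicate 4 alone, introns had 0.977 and X 0.993. In the peaks with the higher pooled signal X had 0.905 and AG/CT runs 0.757, and without peaks at GT/CA runs, an alternative chosen after seeing the data, introns had 0.913. None of the values that changed direction passed the threshold, and the cause of each change was not tested. No paired analysis was possible because the study has 1 group. Depth is unknown, which leaves signal without an error.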
